A study of Komagataella pastoris with 12 samples.

Results

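The thermotolerant strain G14 grown at 37 °C was compared with its parent grown at 30 °C, the comparison group G14_37 vs. Parent_30, which sets heat-grown evolved cells against unstressed starting cells. Both groups were taken whole, as labelled, and the 6 libraries of the comparison came from 12 in the series. The parent is a recombinant Komagataella phaffii GS115 (formerly Pichia pastoris, a methylotrophic yeast used to secrete foreign proteins) that expresses a lipase, and its genotype is labelled wild type. G14, labelled evolved, is 1 isolate obtained from that parent by plasma mutagenesis (atmospheric and room temperature plasma) followed by stepwise evolution at rising temperature, and it carries the same lipase. Cells of both strains were harvested in logarithmic growth in YPD, a rich glucose medium, from 3 biological replicates each. Strain and temperature differ together in this comparison and their parts cannot be told apart in it, so levels in the parent at 37 °C (Parent_37) and in G14 at 30 °C (G14_30), 3 libraries each, are set beside the main values as descriptions. The labels name the organism Komagataella pastoris, while the gene names and chromosome sequences in the table are those of GS115.

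Yeast cells meet heat with chaperones, which bind unfolded proteins. Hsp70 and Hsp40 proteins hold and refold them, Hsp90 finishes the folding of kinases and receptors, and Hsp104-type disaggregases pull proteins out of aggregates. Ribosomal protein genes make up a large part of the mRNA of fast-growing yeast and are lowered in many stresses. Peroxisomes house hydrogen peroxide producing oxidases together with catalase, and in methylotrophic yeasts they expand on methanol or fatty acids and are few on glucose.

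The table holds 5080 rows, 5040 annotated genes and 40 transcripts outside the annotation, and all were tested. The 6 libraries held 13428637 to 18183978 fragments on these rows (median 15412798.5), and 1 fragment on a gene of 1 kb equalled 0.0505 to 0.0822 FPKM, a fragment count divided by the length of the gene and by the size of the library. G14_37 replicate 1 stood apart from its group. Its log2(FPKM + 1) values correlated across genes at r = 0.880 with replicate 2 and r = 0.863 with replicate 3, which correlated with each other at r = 0.959, while the Parent_30 libraries reached 0.987 to 0.996. Results that rest on this library are therefore given with and without it. FPKM added up to between 1137310 and 1187970 in the Parent_30 libraries and to between 832036 and 940001 in those of G14_37. Scaling every library to the same sum (TPM) moved the median Log2 fold change of all rows from -0.01 to 0.39, so list medians are read against the median of all rows.

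Most genes of heat-grown G14 lay within 2-fold of the unstressed parent. A gene was called upregulated or downregulated at an absolute Log2 fold change over 1 and an adjusted p under 0.05 by limma, and it was called held within 2-fold where the 95% interval of its Log2 fold change lay between -1 and 1 and each G14_37 library lay within 1 on the log2 scale of the Parent_30 mean. By these rules 300 rows (5.91%) were upregulated, 356 (7.01%) were downregulated and 3264 (64.3%) were held, and 1160 rows (22.8%) were neither called nor held. Both directions together made 656 rows (12.9%), and 2555 rows (50.3%) had an adjusted p under 0.05 at any fold change. The groups did not overlap in 2899 rows (57.1%), and in 296 of the upregulated and 351 of the downregulated rows. Held is a bound and not equality, since 1185 held rows (23.3% of all) had an adjusted p under 0.05 for a smaller difference. Without G14_37 replicate 1, 263 rows (5.18%) were upregulated, 339 (6.67%) downregulated and 3604 (70.9%) held, of which 228, 284 and 3145 had the same call with all libraries. Under TPM scaling the balance turned to 796 upregulated (15.7%) and 171 downregulated rows (3.37%), with 2800 held (55.1%).

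**Figure D1:**
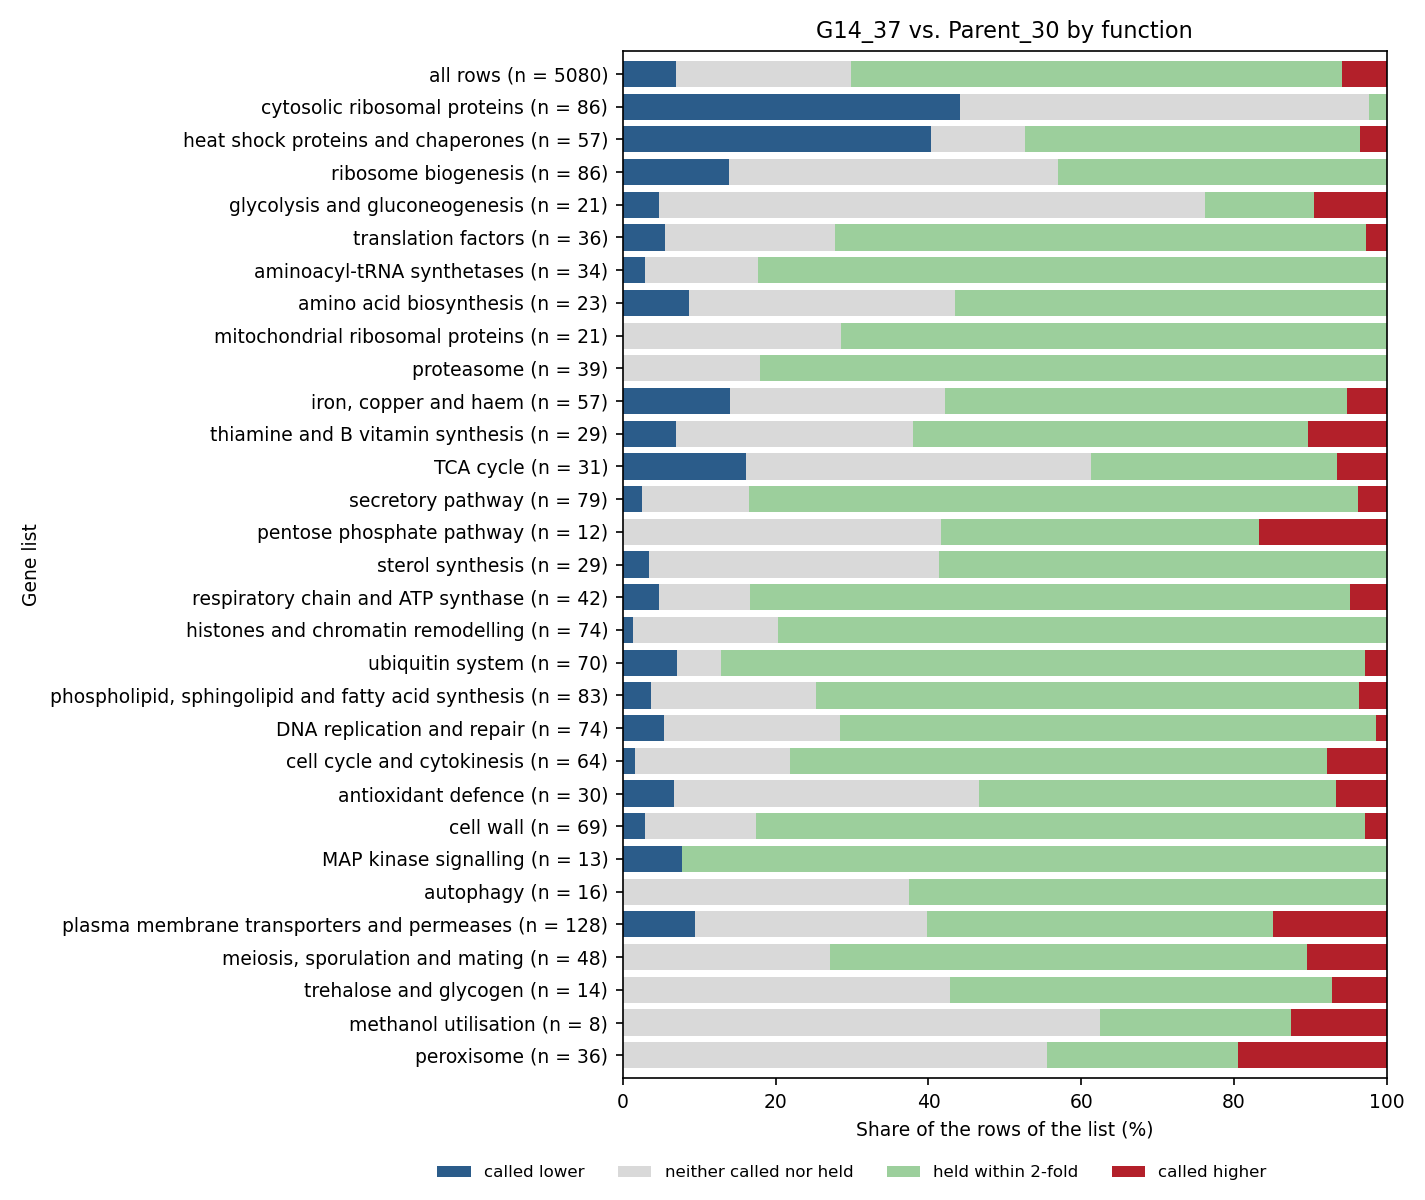
Share of the rows of each gene list that were called lower (blue), neither called nor held (grey), held within 2-fold (green) or called higher (red) in G14_37 vs. Parent_30, in percent, with the lists ordered by their median Log2 fold change and n rows each. Cytosolic ribosomal proteins (38 of 86 lower) and chaperones (23 of 57 lower) have the longest blue bars, and the ubiquitin system (59 of 70) and MAP kinase signalling (12 of 13) the longest green ones. Under TPM scaling, medians of the lists that lie between -0.4 and 0 here turn positive.

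Chaperone genes lay far below the unstressed parent. The study's list of 11 heat shock genes held 10 downregulated and 1 upregulated gene and none that was held, with a median Log2 fold change of -2.40 (-2.06 without G14_37 replicate 1, and -1.98 under TPM scaling). That list was chosen by the study on these libraries, so its count is no independent evidence of a direction. FPKM of the 11 genes added up to 44486, 44174 and 39703 in Parent_30 and to 5901, 10088 and 11635 in G14_37, which is 3.70% against 1.06% of all FPKM. The highest G14_37 sum lay below the lowest of Parent_30. Relative to Parent_30 the median of these genes was -1.68 in G14_30 and 1.15 in Parent_37, on the log2 scale. Genes are named here after the descriptions in the table, because 3 names of that list (HSP12, HSP104 and HSP82) are attached to rows that the table describes as a partner of Hsp40 and Hsp70 (its wording is that of the Saccharomyces cerevisiae disaggregase), as Hsp90 and as a membrane-protecting protein.

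Hsp90 (PAS_chr1-4_0130, chromosome 1, 1644458 to 1646578) had the highest FPKM of the 57 chaperone rows in the parent, at 9104, 8888 and 8108 FPKM in Parent_30 and 811, 2115 and 2745 FPKM in G14_37. All G14_37 values lay below all Parent_30 values, and replicate 1 was the lowest of them. The Log2 fold change was -2.37 (SE 0.36, adjusted p = 0.00037), and it was -1.85 without replicate 1. Mean Hsp90 levels were 17472 FPKM in Parent_37 and 3429 FPKM in G14_30, on either side of the 8700.1 FPKM of Parent_30. Its partners fell with it. HCH1 (PAS_chr3_0170), described as activating the Hsp90 ATPase, changed by -2.74 (SE 0.20, adjusted p = 3.05e-06), STI1 (PAS_chr2-1_0518), which links Hsp90 to Hsp70, by -2.40 (SE 0.24, adjusted p = 2.76e-05), and the co-chaperone PAS_chr1-4_0043 by -2.09 (SE 0.37, adjusted p = 0.000887). An essential Hsp90 co-chaperone (PAS_chr2-1_0323) went from 347 to 112 FPKM on average (-1.66 (SE 0.23, adjusted p = 0.000178)), while it stood at 2128 FPKM in Parent_37.

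Of the Hsp70 system, the nucleotide exchange factor FES1 (PAS_chr2-1_0042, chromosome 2, 74120 to 74983), which releases ADP from Hsp70, fell the most. It stood at 3329, 3381 and 2955 FPKM in Parent_30 and 213, 285 and 257 FPKM in G14_37, with no overlap and with the 3 heat-grown libraries close together. The Log2 fold change was -3.68 (SE 0.16, adjusted p = 1.43e-07), or 12.8-fold lower. SSA1 (PAS_chr4_0552), a cytosolic Hsp70, stood at 6223, 6275 and 5868 FPKM in Parent_30 and 217, 1215 and 1987 FPKM in G14_37. Replicate 1 was the lowest library by a wide gap, and the Log2 fold change of -2.92 (SE 0.60, adjusted p = 0.00239) became -1.98 without it, still called. SSA3 (PAS_chr3_0230), a stress-linked Hsp70, fell by 1.87 on the log2 scale (SE 0.24, adjusted p = 0.000128), from 7889.5 ± 632 FPKM to 2204 ± 581 FPKM (mean ± SD, n = 3). The Hsp104-type disaggregase (PAS_chr1-3_0102) stood at 3995, 3767 and 3371 FPKM in Parent_30 and 477, 671 and 399 FPKM in G14_37, again without overlap, with a Log2 fold change of -2.88 (SE 0.22, adjusted p = 3.99e-06). SSA1 and SSA3 have similar sequences, and how the counting shared reads between near-identical genes is not given in the sources used here.

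**Figure D2:**
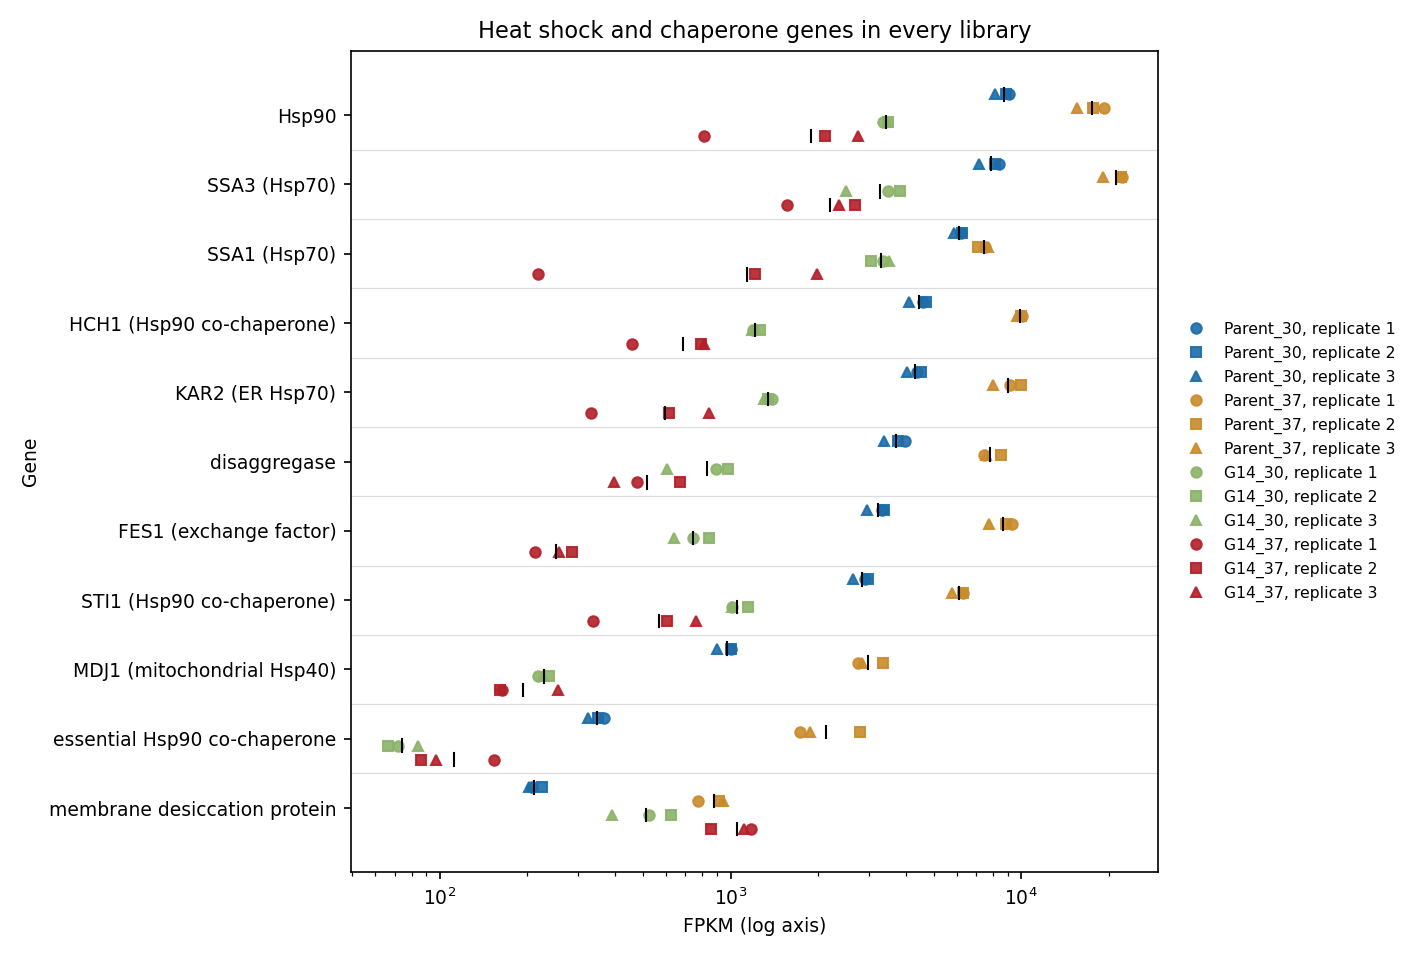
FPKM (log axis) of the 11 genes of the study's heat shock list in every library of the 4 groups, with symbols for the replicates and black bars for the group means. In 10 genes the 3 red G14_37 points lie below all blue Parent_30 points, and the membrane desiccation protein is the exception, at 857 to 1179 FPKM in G14_37 against 203 to 225 FPKM in Parent_30.

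The fall reached the endoplasmic reticulum and the mitochondrion. KAR2 (PAS_chr2-1_0140, chromosome 2, 264385 to 266421), the Hsp70 of the endoplasmic reticulum, stood at 4374, 4508 and 4047 FPKM in Parent_30 and 332, 615 and 842 FPKM in G14_37, and its Log2 fold change was -2.95 (SE 0.27, adjusted p = 1.4e-05). The groups lay far apart, as they did for the mitochondrial Hsp40 MDJ1 (PAS_chr2-2_0323) with -2.35 (SE 0.17, adjusted p = 2.62e-06). The oligomeric mitochondrial matrix chaperone PAS_chr2-1_0324 fell from 1502 ± 158 FPKM to 193 ± 50.8 FPKM (-2.99 (SE 0.22, adjusted p = 2.94e-06)). The tetradecameric chaperonin PAS_chr4_0158 changed less, by -1.23 (SE 0.19, adjusted p = 0.000413), and lost its call under TPM scaling (-0.82). A cyclophilin (PAS_chr3_0567), a prolyl isomerase that helps folding, went from 3646 ± 211 FPKM to 465 ± 250.1 FPKM (-3.14 (SE 0.34, adjusted p = 4.32e-05)).

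Not every folding factor moved by more than 2-fold. Among 57 rows described as heat shock proteins, chaperones or co-chaperones, 23 were downregulated, 2 upregulated and 25 held, against 7.01%, 5.91% and 64.3% of all rows, with a median Log2 fold change of -0.74 (20 downregulated and a median of -0.58 without G14_37 replicate 1, and 16 and -0.33 under TPM scaling). The list was matched by words and also holds copper chaperones and a vacuolar transporter chaperone. Subunits of the cytosolic chaperonin CCT, the ring that folds actin and tubulin, were held in 6 of 8 rows, and their Log2 fold changes ran from -0.75 to -0.33. All 8 were held without replicate 1. In 8 of 8 rows the groups did not overlap, against 57.1% of all rows, and the adjusted p was under 0.05. The bound therefore covers a small fall, with a median of -0.61. Prefoldin, which hands nascent actin and tubulin to CCT, was held in all 3 rows (-0.33 to 0.29). These subgroups were picked after their values had been seen. The ribosome-associated Hsp70 PAS_chr3_0731, which meets new chains at the ribosome, lay between, at 1427, 1426 and 1499 FPKM in Parent_30 and 716, 872 and 831 FPKM in G14_37 (-0.85 (SE 0.18, adjusted p = 0.0031)), and was neither called nor held. The upregulated rows of the 57 were an Hsp40 with a DnaJ-like domain (PAS_chr4_0051), at 37.1, 36.7 and 34.3 FPKM in Parent_30 and 187, 134 and 104 FPKM in G14_37, and an ATP-dependent chaperone of the mitochondrial inner membrane (PAS_chr3_0116), at 59.2, 64.4 and 70.7 FPKM in Parent_30 and 174, 192 and 164 FPKM in G14_37. The groups were apart in both genes, with Log2 fold changes of 1.90 (SE 0.21, adjusted p = 4.14e-05) and 1.43 (SE 0.09, adjusted p = 1.28e-06).

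The row PAS_chr4_0627, described as a plasma membrane protein that protects membranes from desiccation, rose instead. It stood at 207, 225 and 203 FPKM in Parent_30 and 1179, 857 and 1117 FPKM in G14_37, with the lowest heat-grown library well above the highest unstressed one, and the Log2 fold change was 2.29 (SE 0.18, adjusted p = 4.3e-06). Its mean was 876 FPKM in Parent_37 and 512 FPKM in G14_30, so heat-grown parent cells came near the level of G14_37.

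Translation was the other large function below the unstressed parent, by a smaller step spread over many genes. Of 86 cytosolic ribosomal protein genes, 38 were downregulated, none was upregulated and 2 were held, against 7.01%, 5.91% and 64.3% of all rows. The median Log2 fold change was -0.96, against -0.01 for all rows, and all 86 values lay below 0. G14_37 replicate 1 carried part of this. The list median was -1.34, -0.84 and -0.72 in its replicates 1, 2 and 3. Without replicate 1 the median was -0.78, and 14 genes were downregulated and 15 held, against 6.67% and 70.9% of all rows. Under TPM scaling 4 were downregulated and 43 held, against 3.37% and 55.1% of all rows. The list median then stood at -0.95 relative to the median of all rows.

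FPKM of the 86 genes made up 21.2% of the sum in Parent_30 and 14.6% in G14_37. The largest fall was in L9 of the large subunit (PAS_chr1-1_0382), at 1996, 2024 and 2133 FPKM in Parent_30 and 329.9, 781 and 937 FPKM in G14_37, without overlap (-1.72 (SE 0.35, adjusted p = 0.00207)). A second L9 gene (PAS_chr1-1_0236), at 831, 860.0 and 875 FPKM in Parent_30 and 506, 525 and 645 FPKM in G14_37, was one of the 2 held ones (-0.62 (95% interval -0.97 to -0.27)), and reads of such pairs may be hard to assign. L22 (PAS_chr4_0041) went from 2415 ± 43.2 FPKM to 824 ± 203 FPKM (-1.58 (SE 0.18, adjusted p = 6.49e-05)). In Parent_37 the list median relative to Parent_30 was -2.35, and in G14_30 it was -0.11.

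Ribosome assembly moved in the same direction in fewer genes. Of 86 rows for ribosome biogenesis, 12 were downregulated, none was upregulated and 37 were held, against 7.01%, 5.91% and 64.3% of all rows. The list median was -0.69. Leaving out Parent_30 replicate 3 left 7 downregulated rows, and leaving out Parent_30 replicate 1 or G14_37 replicate 3 gave 19 and 20. Of all 5080 rows, 340, 384 and 424 were downregulated in these fits. TPM scaling gave 4 downregulated rows of the 86, against 3.37% of all rows. The ABC family ATPase PAS_chr3_0918, which helps to build both ribosomal subunits, fell from 1064 ± 65.6 FPKM to 242 ± 14.9 FPKM (-2.13 (SE 0.16, adjusted p = 3.97e-06)), and PAS_chr1-4_0506, needed for cytoplasmic 20S pre-rRNA processing, changed by -1.51 (SE 0.23, adjusted p = 0.000354). Of 34 aminoacyl-tRNA synthetases, which charge tRNA, 28 were held, and of 36 translation factors 25 were held (69.4%, near the 64.3% of all rows), with medians of -0.44 and -0.50. The 1 called synthetase, a mitochondrial glutamyl-tRNA synthetase (PAS_chr1-1_0241), stood at 92.4, 91.9 and 82.0 FPKM in Parent_30 and 39.1, 35.3 and 34.8 FPKM in G14_37 (-1.26 (SE 0.10, adjusted p = 4.3e-06)) and lost its call under TPM scaling (-0.86). The alpha subunit of eIF2 (PAS_chr3_0077), which brings the initiator tRNA, was downregulated, at 460.1, 466 and 477 FPKM in Parent_30 and 147, 171 and 169.8 FPKM in G14_37 (-1.52 (SE 0.11, adjusted p = 2.78e-06)). EF-1 alpha (PAS_FragB_0052), the abundant factor that delivers tRNA, stood at 11243, 11027 and 11206 FPKM in Parent_30 and 4743, 5793 and 5636 FPKM in G14_37 and was called at -1.05 (SE 0.18, adjusted p = 0.000663), a call that ended without replicate 1 (-0.97) and under TPM scaling (-0.64). A low-level EF-1 gamma row (PAS_chr3_1071) was upregulated (1.54 (SE 0.23, adjusted p = 0.000371)). Mitochondrial ribosomal proteins were held in 15 of 21 rows with none called, and their median lay at -0.39 relative to that of all rows, and at -0.38 under TPM scaling.

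Functions of which heat-grown G14 held most rows near the unstressed parent included protein turnover, traffic, chromatin, cell wall and respiration. Held within 2-fold were 59 of 70 rows of the ubiquitin system, 32 of 39 of the proteasome, 63 of 79 of the secretory pathway, 59 of 74 for histones and chromatin remodelling, 55 of 69 for the cell wall, 33 of 42 for the respiratory chain and ATP synthase, and 12 of 13 for MAP kinase signalling, against 64.3% of all rows. At the tighter bound of 1.5-fold, 46 of the 74 chromatin rows and 36 of the 70 ubiquitin rows were held, against 30.6% of all rows, but 10 of the 39 proteasome rows and 11 of the 42 respiratory rows. For the proteasome the bound covers a small fall, since 35 of the 39 rows lay below 0. Its median was -0.34 relative to that of all rows, and -0.33 under TPM scaling. The chromatin counts do not describe its abundant rows. FPKM of the 74 rows added up to 16414, 16274 and 16496 in Parent_30. In G14_37 the sums were 5984, 23120 and 23271, with replicate 1 below the parent and the others above it. The respiratory rows also differed between G14_37 libraries, with list medians of 0.42, -0.15 and -0.33 in replicates 1, 2 and 3. Their FPKM sums were 41952, 26610 and 22007 in these replicates, against 26839 to 29088 in Parent_30. Under TPM scaling the counts within 2-fold were 47 of 70, 36 of 39, 60 of 79, 55 of 74, 35 of 69, 25 of 42 and 5 of 13, against 55.1% of all rows, so the shares of the cell wall and MAP kinase rows fell below that of all rows.

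**Figure D3:**
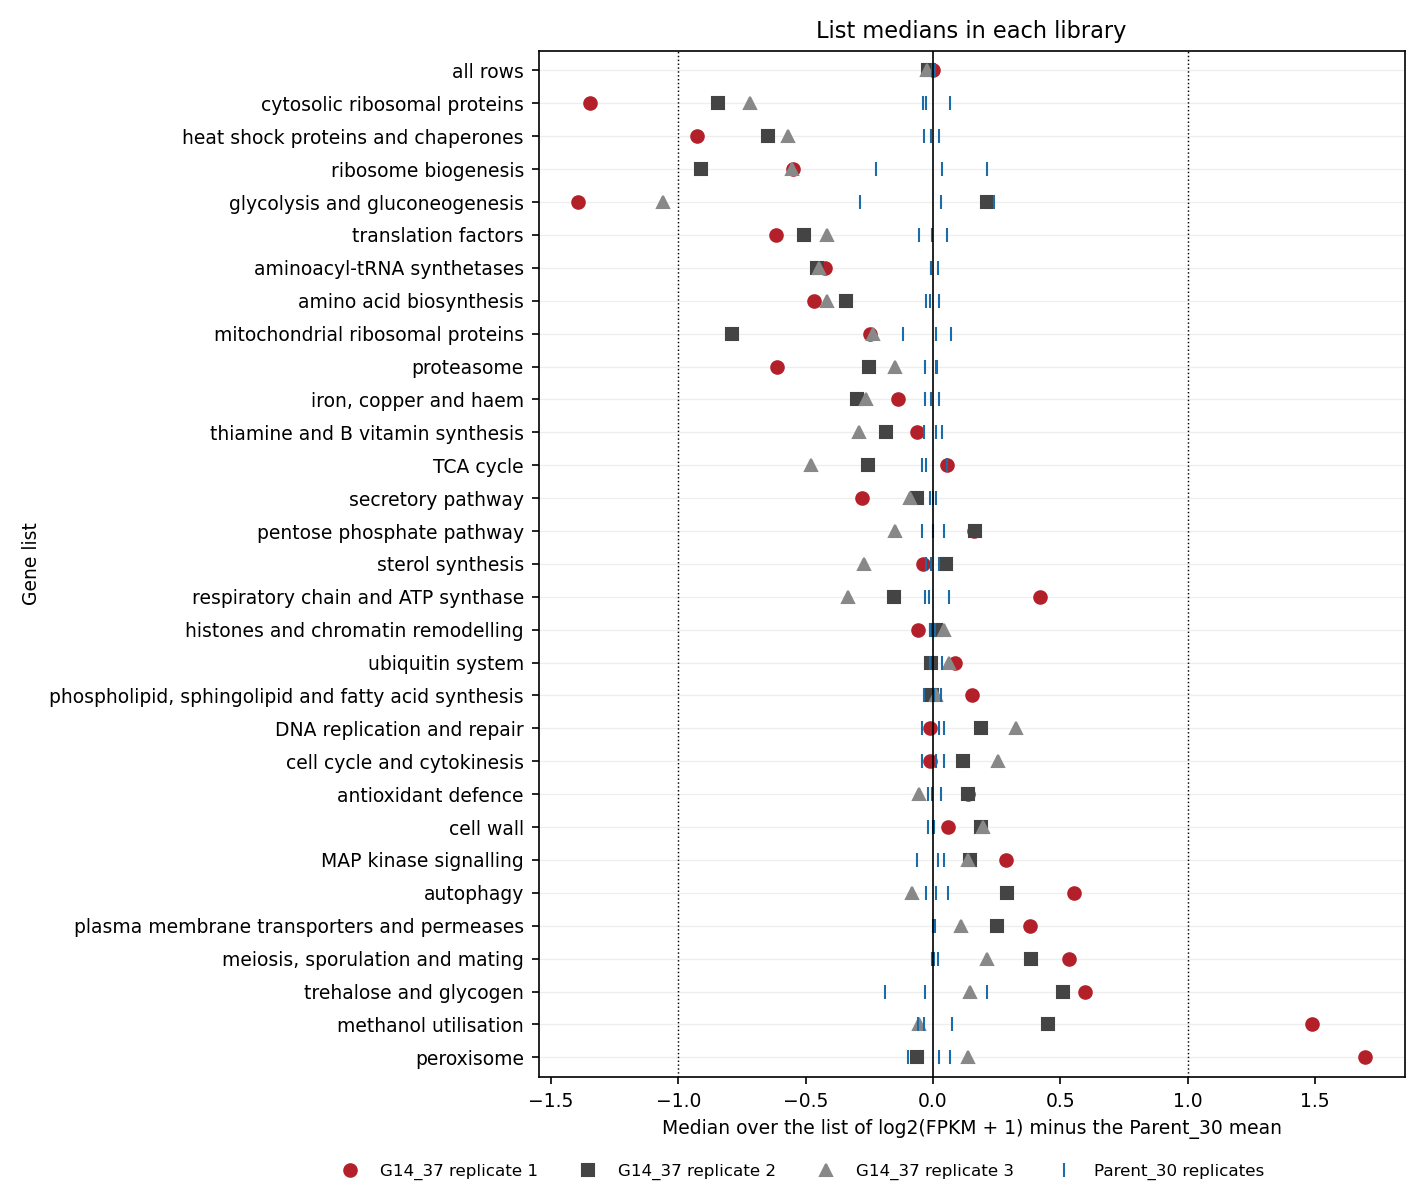
Median over each gene list of log2(FPKM + 1) minus the Parent_30 mean of the gene, for the 3 G14_37 libraries (red circles, black squares and grey triangles) and the 3 Parent_30 libraries (blue ticks), with dotted lines at 2-fold. In the peroxisome list the medians are 1.70, -0.06 and 0.14 for replicates 1, 2 and 3, and in the glycolysis list -1.39, 0.21 and -1.06, while the ubiquitin and chromatin lists lie within -0.06 to 0.09. Under TPM scaling list medians lie higher by about the 0.39 of all rows.

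Named examples show how close the held genes came. The beta 4 subunit of the 20S proteasome (PAS_chr1-4_0117) stood at 413, 412 and 446 FPKM in Parent_30 and 216, 322 and 380.3 FPKM in G14_37, without overlap (-0.50 (95% interval -0.89 to -0.12)). The SUMO-type modifier PAS_chr1-4_0205 stood at 704, 613 and 642 FPKM in Parent_30 and 408, 633 and 682 FPKM in G14_37, where the groups overlapped (-0.22 (95% interval -0.61 to 0.18)). The ARF-family GTPase PAS_chr1-1_0180, a coat component of vesicles, went from 538 ± 5.52 FPKM to 472 ± 40.6 FPKM (-0.19 (95% interval -0.41 to 0.03)). For the cell wall protein PAS_chr2-2_0148, with a predicted membrane anchor, means were 2451 ± 125 FPKM and 2040.4 ± 485 FPKM, again overlapping (-0.29 (95% interval -0.69 to 0.11)). The RSC chromatin remodelling subunit PAS_chr3_0544 was held at -0.29 (95% interval -0.54 to -0.03), and the osmoregulatory MAP kinase PAS_chr1-3_0232 at -0.22 (95% interval -0.49 to 0.04).

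Single genes departed inside these held functions. Of the MAP kinase rows, the serine/threonine MAP kinase PAS_chr3_0895 was the exception, at 186, 152 and 151 FPKM in Parent_30 and 35.2, 45.1 and 52.6 FPKM in G14_37 (-1.87 (SE 0.16, adjusted p = 6.78e-06)), while its mean in Parent_37 was 1534 FPKM. In the ubiquitin system BUL1 (PAS_chr2-2_0022), which binds the Rsp5 ligase, stood at 257, 254 and 232 FPKM in Parent_30 and 56.0, 44.4 and 56.7 FPKM in G14_37, far apart (-2.23 (SE 0.11, adjusted p = 2.27e-07)). The ubiquitin gene UBI4 (PAS_chr4_0762) went from 2522 ± 91.7 FPKM to 1226 ± 222 FPKM, and its Log2 fold change of -1.06 became -0.91 without replicate 1 and -0.64 under TPM scaling, each of which ended the call. The ubiquitin-conjugating enzyme PAS_chr3_0710, which marks short-lived and abnormal proteins, stood at 2677, 2785 and 2605 FPKM in Parent_30 and 819, 1148 and 1163 FPKM in G14_37 (-1.38 (SE 0.16, adjusted p = 6.49e-05)), with no call under TPM scaling (-0.97). The vacuolar ligase PIB1 (PAS_chr1-1_0290) was upregulated at 1.22 and also lost its call without replicate 1 (0.69). UBP2 (PAS_chr3_0117), a ubiquitin protease, and HRD1-2 (PAS_chr4_0444), a ligase, were held. In the cell wall list a Gas1-maturation factor (PAS_chr2-1_0199) fell from 636 ± 32.5 FPKM to 149 ± 25.4 FPKM (-2.10 (SE 0.14, adjusted p = 1.73e-06)), the RIM101 pathway component PAS_chr2-1_0073 changed by -1.48 (SE 0.12, adjusted p = 3.99e-06), and the catalytic subunit of glucan synthase (PAS_chr2-1_0263), which makes the main wall polymer, rose from 19.4 ± 3.01 FPKM to 60.6 ± 29.4 FPKM (1.498 (SE 0.29, adjusted p = 0.00152)). A SUN family protein of the wall (PAS_chr4_0046), at 534, 536 and 523 FPKM in Parent_30 and 907, 1323 and 1024 FPKM in G14_37, was only just called (1.011 (SE 0.15, adjusted p = 0.000295)), and leaving out single libraries moved it between 0.86 and 1.13. The histone acetyltransferase Hat1 (PAS_chr3_0228) was the 1 called chromatin row (-2.16 (SE 0.11, adjusted p = 2.27e-07)), and farnesyl pyrophosphate synthetase (PAS_chr1-4_0314) the 1 called row of 29 for sterol synthesis (-1.61 (SE 0.16, adjusted p = 2.18e-05)).

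Of the study's 6 transcription factors of the stress response, 4 were held (66.7%, about the 64.3% of all rows), and MSN4 and SKN7 were neither called nor held. The heat shock factor HSF1 (PAS_chr2-1_0026), which drives chaperone genes, stood at 63.8, 75.0 and 71.8 FPKM in Parent_30 and 85.6, 78.3 and 85.7 FPKM in G14_37, a small difference without overlap (0.24 (95% interval 0.02 to 0.47)). YAP1 (PAS_chr4_0601), the oxidative stress regulator, stood at 172, 170.1 and 180.2 FPKM in Parent_30 and 244, 172 and 208 FPKM in G14_37 (0.24 (95% interval -0.02 to 0.51)). SWI6 (PAS_chr4_0634) and OPY2 (PAS_chr3_0637, described in the table as hypothetical) were held at 0.13 and 0.10. MSN4 (PAS_chr2-1_0723) had 441, 206 and 156 FPKM in the G14_37 replicates around the 197 FPKM of Parent_30, and SKN7 (PAS_chr3_1235) lay at 0.69 (95% interval 0.23 to 1.16).

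Catalase and a small set of peroxisomal genes were above the unstressed parent. CAT (PAS_chr2-2_0131, chromosome 2, 2139070 to 2140602), the peroxisomal catalase A that breaks down hydrogen peroxide, stood at 72.0, 70.1 and 60.7 FPKM in Parent_30 and 1959, 264 and 297 FPKM in G14_37. Every heat-grown library lay above every unstressed one, replicate 1 by far the highest. The Log2 fold change was 2.97 (SE 0.59, adjusted p = 0.00198), and 2.04 without replicate 1, still called. CAT means were 266 FPKM in Parent_37 and 104 FPKM in G14_30. Of the study's 9 peroxisomal genes, 7 were upregulated and none was held, with a median of 1.66 (6 and 1.23 without replicate 1). The study picked these genes from the upregulated ones of these libraries, so the count is no independent evidence. The dienoyl-CoA reductase PDCR (PAS_chr3_0975), an auxiliary enzyme of fatty acid breakdown, stood at 65.3, 51.0 and 47.3 FPKM in Parent_30 and 944, 201 and 81.7 FPKM in G14_37 (2.19 (SE 0.66, adjusted p = 0.018)). Its value was 1.23 without replicate 1, and its adjusted p reached 0.0538 with a single library left out, which ended the call. A more abundant row of the same description, PAS_chr2-2_0019, is outside the study's list and was held. It stood at 618, 657 and 614 FPKM in Parent_30 and 1072, 537 and 358 FPKM in G14_37. The Log2 fold change of that row was -0.09, and -0.52 without replicate 1, where it was also held. The fatty acid transporter subunit PXA (PAS_chr2-2_0272) stood at 14.9, 17.9 and 14.1 FPKM in Parent_30 and 204, 25.6 and 34.9 FPKM in G14_37, called with all libraries (1.81 (SE 0.57, adjusted p = 0.0226)) and not without replicate 1 (0.90). D-aspartate oxidase DDO (PAS_chr3_0406), a peroxide-forming enzyme, went evenly from 118 ± 5.66 FPKM to 248 ± 41.1 FPKM (1.06 (SE 0.12, adjusted p = 6.49e-05)). Further names of that list sit on rows with another or no described role. PMP47 (PAS_chr3_0099) is described as a mitochondrial NAD+ transporter (1.80 (SE 0.20, adjusted p = 4.79e-05)), MPV17 (PAS_chr2-2_0273) as needed for ethanol metabolism (1.51 (SE 0.15, adjusted p = 1.87e-05)) and XDH (PAS_chr2-2_0112) as hypothetical (1.66 (SE 0.24, adjusted p = 0.000238)).

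Peroxisome assembly as a whole did not follow catalase in all libraries. Of 36 peroxisomal rows matched by description, 7 were upregulated (19.4%), 9 held and 20 neither, against 5.91%, 64.3% and 22.8% of all rows. The list median was 1.70, -0.06 and 0.14 in G14_37 replicates 1, 2 and 3. Without replicate 1, 3 rows were upregulated and 28 were held, against 5.18% and 70.9% of all rows, and the median was 0.15. Without Parent_30 replicate 3 also 3 were upregulated, and without G14_37 replicate 2 or 3 the number was 11 in each case. Of all 5080 rows, 289, 346 and 400 were upregulated in these fits. Both groups fitted alone gave 2 upregulated rows of the 36, where 263 of all 5080 rows were upregulated. TPM scaling gave 14, against 15.7% of all rows. The receptor for the C-terminal import signal of matrix proteins (PAS_chr2-2_0186) stood at 44.0, 52.4 and 45.7 FPKM in Parent_30 and 387, 37.7 and 39.8 FPKM in G14_37. Replicate 1 was high and the others lay at or below the parent. PEX14 (PAS_chr4_0794), of the import machinery, had a similar shape, with 195, 63.5 and 75.8 FPKM in the G14_37 replicates, and was neither called nor held. Among 15 assembly proteins, 1 was upregulated and 4 held with all libraries, and 15 of 15 were held without replicate 1. This subgroup was picked after its values had been seen. The peroxisomal amine oxidase PAS_chr1-4_0441, another peroxide-forming enzyme, did not depend on that library, at 7.03, 7.96 and 8.51 FPKM in Parent_30 and 28.0, 21.9 and 28.3 FPKM in G14_37 (1.61 (SE 0.13, adjusted p = 4.99e-06)).

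Of 30 rows for antioxidant defence, catalase included, 2 were upregulated, 2 downregulated and 14 held, so the called shares (6.67% each way) were near the 5.91% and 7.01% of all rows. Without replicate 1 the counts were 1, 2 and 22, and under TPM scaling 5, 1 and 15, against 15.7%, 3.37% and 55.1% of all rows in that scaling. Mitochondrial superoxide dismutase SOD2 (PAS_chr1-4_0071) was held at 0.33 (95% interval 0.08 to 0.59), the peroxiredoxin PRX1 (PAS_chr3_0906) at -0.05 (95% interval -0.26 to 0.15) and the thioredoxin PAS_chr4_0284 at -0.01 (95% interval -0.32 to 0.29). Cytosolic SOD1 (PAS_chr4_0786) stood at 1558, 1655 and 1552 FPKM in Parent_30 and 999, 694 and 1378 FPKM in G14_37 and was neither called nor held. The thioredoxin peroxidase TSA1 (PAS_chr2-2_0220), which also acts at the ribosome, was downregulated, at 3869.6, 3748 and 3481 FPKM in Parent_30 and 1158, 2276 and 1445 FPKM in G14_37 (-1.24 (SE 0.25, adjusted p = 0.00193)), a call that ended under TPM scaling (-0.83). The cytoplasmic thioredoxin isoenzyme PAS_chr3_0670, a small redox protein, was lower and uneven, at 59.7, 48.1 and 100.06 FPKM in Parent_30 and 2.57, 10.6 and 36.8 FPKM in G14_37 (-2.53 (SE 0.72, adjusted p = 0.0131)). It stood at -1.68 without replicate 1, and its adjusted p reached 0.0513 with a single library left out. A row that the study names AHP1 (PAS_chr1-4_0659) and the table calls hypothetical rose from 286 ± 13.6 FPKM to 631 ± 70.3 FPKM (1.13 (SE 0.20, adjusted p = 0.000857)), and stood at 2014 FPKM in Parent_37.

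**Figure D4:**
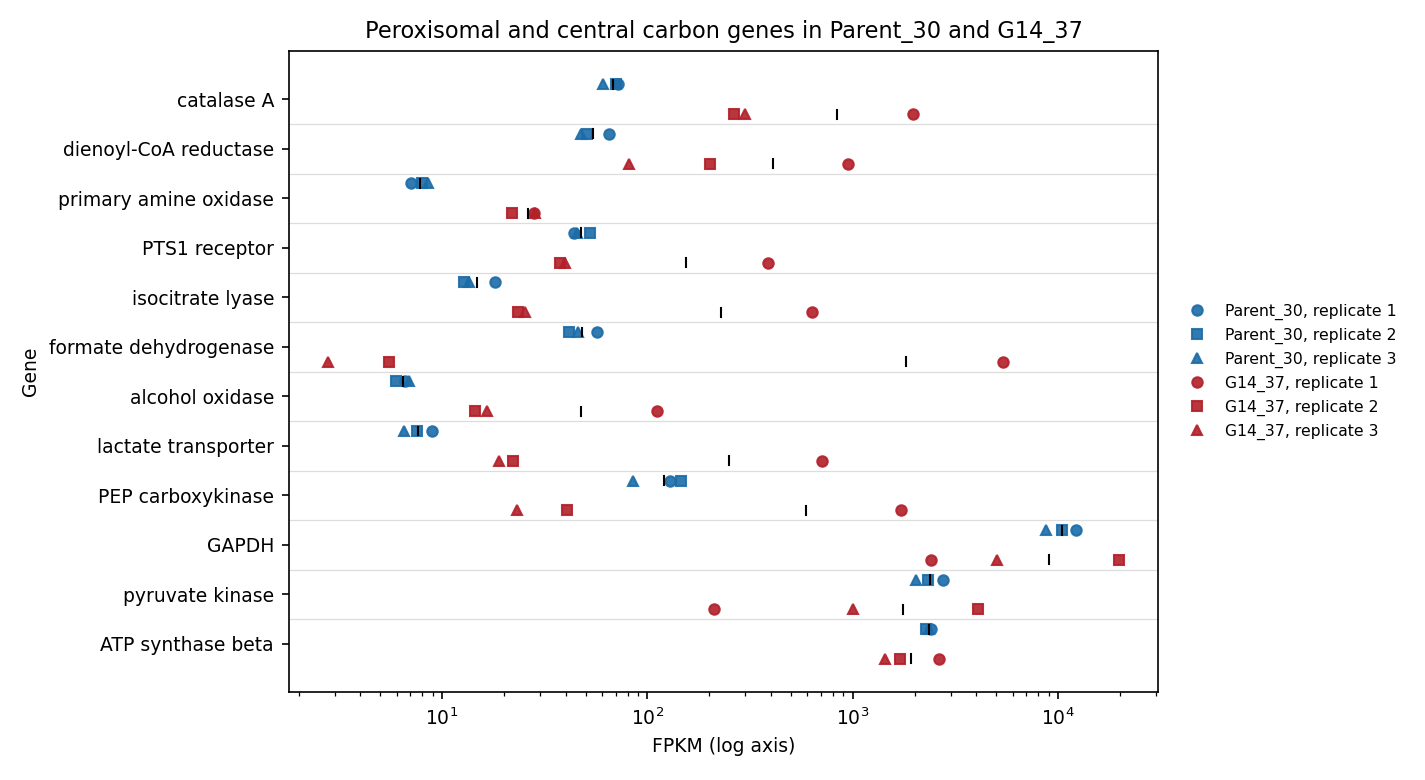
FPKM (log axis) of 12 peroxisomal and central carbon genes in the 3 Parent_30 (blue) and 3 G14_37 (red) libraries, with symbols for the replicates and black bars for the group means. Formate dehydrogenase (PAS_chr3_0932) lies at 5415, 5.52 and 2.79 FPKM in G14_37 replicates 1, 2 and 3 and glyceraldehyde-3-phosphate dehydrogenase (GAPDH, PAS_chr2-1_0437) at 2393, 19762 and 5013, whereas the red points of catalase A and of the amine oxidase all lie above the blue ones.

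Central carbon genes could not be placed, because the 3 G14_37 libraries disagreed. Of 21 rows for glycolysis and gluconeogenesis, 15 were neither called nor held, against 22.8% of all rows. Pyruvate kinase (PAS_chr2-1_0769), the last step of glycolysis, stood at 2756, 2332 and 2029 FPKM in Parent_30 and 211, 4080.0 and 997 FPKM in G14_37. Replicate 2 was above the parent, replicate 3 below it and replicate 1 far below it. GAPDH (PAS_chr2-1_0437) and pyruvate decarboxylase (PAS_chr3_0188), which leads to ethanol, were spread alike, at 2393, 19762 and 5013 FPKM and 387, 7828 and 1882 FPKM in the G14_37 replicates. Leaving out G14_37 replicate 2 brought 10 downregulated rows of the 21, against 1 with all libraries and 3 without replicate 1. Of all 5080 rows, 397, 356 and 339 were downregulated in these fits. Hexokinase-2 (PAS_chr1-4_0561), the entry enzyme, was lower in all 3, at 1538, 1401 and 1021 FPKM in Parent_30 and 339.9, 636 and 242 FPKM in G14_37 (-1.80 (SE 0.42, adjusted p = 0.00454)), and a less abundant hexokinase row (PAS_chr1-4_0447) was higher in all 3 (1.30 (SE 0.12, adjusted p = 1.43e-05)).

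Some genes that serve growth on other carbon sources rose in replicate 1 and much less, or not, in the others. Of 8 rows for methanol use, 1 was upregulated, 2 held and 5 neither, against 5.91%, 64.3% and 22.8% of all rows. Dihydroxyacetone kinase (PAS_chr3_0841) was held, at 360.2, 335 and 263 FPKM in Parent_30 and 457, 245 and 159 FPKM in G14_37. Without replicate 1 it was neither called nor held. Formate dehydrogenase (PAS_chr3_0932), the last enzyme of methanol breakdown, stood at 56.8, 41.3 and 45.8 FPKM in Parent_30 and 5415, 5.52 and 2.79 FPKM in G14_37, so its Log2 fold change of 0.08 had an SE of 2.07 and says nothing of a typical level. Phosphoenolpyruvate carboxykinase (PAS_FragB_0061), the key step of gluconeogenesis, stood at 129, 146 and 85.3 FPKM in Parent_30 and 1719, 40.7 and 23.1 FPKM in G14_37, and isocitrate lyase (PAS_chr1-4_0338), of the glyoxylate cycle, at 18.1, 12.8 and 13.5 FPKM in Parent_30 and 635, 23.5 and 25.2 FPKM in G14_37. In both, replicate 1 lay far above the parent, while replicates 2 and 3 were below it for the former and slightly above it for the latter. These 3 genes were chosen after their values were seen. The lactate transporter PAS_chr3_0440, at 8.92, 7.58 and 6.53 FPKM in Parent_30 and 709, 22.2 and 19.0 FPKM in G14_37, was called (3.002 (SE 1.04, adjusted p = 0.0323)) with its size set by replicate 1 (1.32 without it), and its adjusted p reached 0.081 with a single library left out. Alcohol oxidase (PAS_chr4_0821), the first enzyme of methanol use, stood at 6.57, 5.98 and 6.87 FPKM in Parent_30 and 111, 14.5 and 16.6 FPKM in G14_37 and kept its call without replicate 1 (2.07 and 1.14). The part that the culture behind replicate 1 has in these results was not tested beyond leaving it out.

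Of the mitochondrial energy genes, the respiratory chain was held in 33 of 42 rows and the TCA cycle in 10 of 31 (32.3%, against 64.3% of all rows). The beta subunit of the F1 ATP synthase (PAS_chr2-2_0165) stood at 2413, 2278 and 2351 FPKM in Parent_30 and 2639.7, 1705 and 1431 FPKM in G14_37, overlapping (-0.33 (95% interval -0.82 to 0.15)). Of 31 rows for the TCA cycle, which by its words also takes in branches of amino acid synthesis, 5 were downregulated and 2 upregulated, against 7.01% and 5.91% of all rows. Without replicate 1 the numbers downregulated, upregulated and held were 3, 0 and 20. Under TPM scaling they were 0, 6 and 11, where all rows turn the same way (3.37%, 15.7% and 55.1%). The alpha subunit of succinyl-CoA ligase (PAS_chr3_0831), at 548, 522 and 515 FPKM in Parent_30 and 177, 228 and 303 FPKM in G14_37, and the NAD-dependent isocitrate dehydrogenase subunit PAS_chr2-1_0120, at 564, 566 and 575 FPKM in Parent_30 and 234, 282 and 248 FPKM in G14_37, were downregulated without overlap (-1.19 (SE 0.22, adjusted p = 0.00135) and -1.16 (SE 0.16, adjusted p = 0.000189)), and both lost their call under TPM scaling (-0.78 and -0.75). The external NADH dehydrogenase PAS_chr3_0792 fell by 1.47 on the log2 scale, whereas the assembly protein of ubiquinol cytochrome c reductase PAS_chr3_0123 rose (1.07 (SE 0.09, adjusted p = 6.95e-06)). In carbohydrate storage, the acid trehalase PAS_chr4_0342, which splits external trehalose, rose to 207, 55.8 and 44.6 FPKM from 19.4 FPKM (1.997 (SE 0.44, adjusted p = 0.00335); 1.32 without replicate 1), and UDP-glucose pyrophosphorylase (PAS_chr1-3_0122) was held. Ribose-5-phosphate isomerase (PAS_chr4_0212), of the pentose phosphate pathway, rose as well (1.92 (SE 0.24, adjusted p = 9.63e-05)), beside a held 6-phosphogluconate dehydrogenase (PAS_chr3_0277, -0.32 (95% interval -0.86 to 0.22)).

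Iron uptake genes showed large falls. The ferric reductase PAS_chr4_0240 (chromosome 4, 486364 to 488484), which frees iron from siderophores before uptake, stood at 975, 1133 and 1095 FPKM in Parent_30 and 23.6, 17.3 and 46.5 FPKM in G14_37. The groups were far apart, and the Log2 fold change was -5.26 (SE 0.48, adjusted p = 1.22e-05), or 38.4-fold lower. Its mean was 49.4 FPKM in Parent_37 and 302 FPKM in G14_30, both below Parent_30. The high-affinity iron permease PAS_chr1-4_0040 stood at 1146, 1269 and 1335 FPKM in Parent_30 and 236, 248 and 492 FPKM in G14_37 (-2.02 (SE 0.24, adjusted p = 8.03e-05)), and the multicopper oxidase PAS_chr1-4_0041, whose Saccharomyces cerevisiae relative Fet3 oxidises iron for such a permease, changed by -1.02 (SE 0.11, adjusted p = 3.86e-05), a call that ended under TPM scaling (-0.61) and with a single library left out (-0.98). These rows are neighbours on chromosome 1. The ferrioxamine transporters PAS_chr2-1_0012 and PAS_chr3_0662 fell as well, with Log2 fold changes of -2.16 and -2.04, the latter between -2.69 and -1.53 with single libraries left out. Of 10 rows for siderophore and reductive iron uptake, a subgroup picked after its values had been seen, 7 were downregulated with and without replicate 1, 1 was upregulated (0 without replicate 1) and 1 was held, and TPM scaling left 5 downregulated. The held one was the ferric and cupric reductase PAS_chr3_0982, at 909, 1017 and 948 FPKM in Parent_30 and 991, 836 and 797 FPKM in G14_37 (-0.14 (95% interval -0.44 to 0.17)). Over all 57 rows for iron, copper and haem, 8 were downregulated, 3 upregulated and 30 held, against 7.01%, 5.91% and 64.3% of all rows. Without replicate 1 these counts were 10, 1 and 31. Under TPM scaling 3 were downregulated and 8 upregulated, where all rows turn the same way (3.37% and 15.7%). The copper-exporting ATPase PAS_chr4_0732 was among the upregulated ones (1.31 (SE 0.17, adjusted p = 0.000162)).

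**Figure D5:**
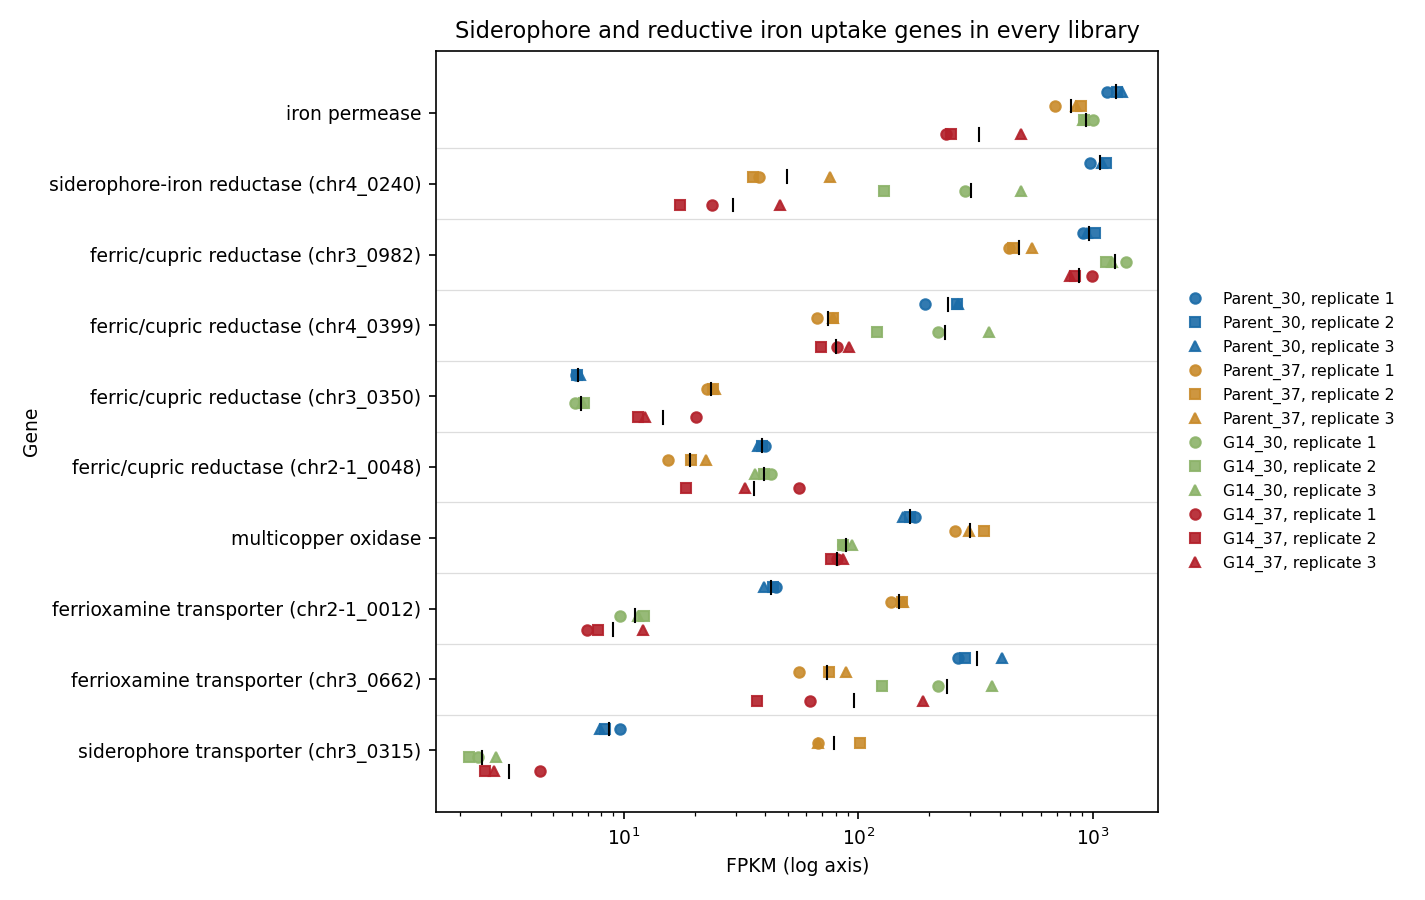
FPKM (log axis) of the 10 iron uptake genes in every library of the 4 groups, with symbols for the replicates and black bars for the group means. The siderophore-iron reductase lies at 17.3 to 46.5 FPKM in G14_37 and at 975 to 1133 FPKM in Parent_30, while the ferric and cupric reductase PAS_chr3_0982 lies at 797 to 991 and at 909 to 1017 FPKM.

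Of 128 rows for plasma membrane transporters and permeases, 19 were upregulated, 12 downregulated and 58 held (17, 15 and 69 without replicate 1), against 5.91%, 7.01% and 64.3% of all rows. The median was 0.29, and TPM scaling gave 40 upregulated, 6 downregulated and 43 held, against 15.7%, 3.37% and 55.1% of all rows. The putative permease PAS_chr1-1_0284, proposed to take up carboxylic acids, rose, at 8.34, 10.2 and 9.92 FPKM in Parent_30 and 131, 53.7 and 35.2 FPKM in G14_37 (2.61 (SE 0.35, adjusted p = 0.000172)). The zinc transporter PAS_chr4_0516 was held, with overlapping groups (0.13 (95% interval -0.42 to 0.68)).

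Vitamin and aromatic metabolism held some of the largest single shifts. Riboflavin synthase (PAS_chr4_0081, chromosome 4, 158969 to 159725), the last enzyme of vitamin B2 synthesis, stood at 1360.3, 1332 and 1199 FPKM in Parent_30 and 90.4, 100.43 and 88.6 FPKM in G14_37, with narrow spread in both groups (-3.79 (SE 0.14, adjusted p = 5.88e-08)). The hypothetical gene beside it, PAS_chr4_0080, fell even more, at 11962, 11731 and 10187 FPKM in Parent_30 and 306, 372 and 195 FPKM in G14_37 (-5.32 (SE 0.23, adjusted p = 1.43e-07)), the largest fall of all rows. Both were also low in G14_30, at 172 and 1457 FPKM on average, and not in Parent_37, at 1772 and 10476 FPKM. Thiazole synthase (PAS_chr3_0648), which makes the thiazole ring of thiamine, went the other way, at 308, 349 and 255 FPKM in Parent_30 and 2888, 4717 and 964 FPKM in G14_37 (2.96 (SE 0.55, adjusted p = 0.0013)), and moved between 2.46 and 3.61 with single libraries left out. The folate enzyme methenyltetrahydrofolate synthetase (PAS_chr4_0247) was called at 1.30 (SE 0.33, adjusted p = 0.00703), with 0.91 where a single library was left out, which ended the call. The NAD synthesis enzyme PAS_chr1-4_0181, a nicotinic acid mononucleotide adenylyltransferase, changed by -1.23 (SE 0.18, adjusted p = 0.000304) and lost its call under TPM scaling (-0.82). Both phenylpyruvate decarboxylase rows (PAS_chr3_0095 and PAS_chr4_0314), which turn aromatic amino acid breakdown products into aldehydes, fell (-3.65 (SE 0.43, adjusted p = 7.79e-05) and -2.96 (SE 0.44, adjusted p = 0.000307)). With single libraries left out they ranged from -4.16 to -3.01 and from -3.44 to -2.31. Lower too was the pirin gene PAS_chr1-4_0145, at 1106, 988 and 918 FPKM in Parent_30 and 65.9, 69.7 and 88.7 FPKM in G14_37 (-3.74 (SE 0.14, adjusted p = 5.88e-08)). The pirin mean was 4275 FPKM in Parent_37. The sugar phosphatase PAS_chr2-1_0016, similar to Dog2, stood at 2866, 2116 and 1563 FPKM in Parent_30 and 11.01, 746 and 150.01 FPKM in G14_37, low but very uneven in G14_37 (-4.26 (SE 1.20, adjusted p = 0.0129)). It was -2.66 without replicate 1. Of 23 rows for amino acid biosynthesis, 2 were downregulated, none was upregulated and 13 were held, against 7.01%, 5.91% and 64.3% of all rows. Among the downregulated ones was the cobalamin-independent methionine synthase (PAS_chr2-1_0160, -1.22 (SE 0.20, adjusted p = 0.000515), and -0.81 and not called under TPM scaling). Leaving out G14_37 replicate 2 raised the downregulated rows to 5. TPM scaling gave 0 downregulated and 2 upregulated, against 3.37% and 15.7% of all rows.

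Growth and genome functions were held at shares near that of all rows (64.3%), with 52 of 74 rows for DNA replication and repair, 45 of 64 for the cell cycle and 30 of 48 for meiosis, sporulation and mating. Of the 74 repair rows, 4 were downregulated and 1 upregulated, against 7.01% and 5.91% of all rows. Without replicate 1, 2 were downregulated. Under TPM scaling 2 were downregulated, 10 upregulated and 32 held, where all rows turn the same way (3.37%, 15.7% and 55.1%). RAD50 (PAS_chr1-4_0513), a double-strand break repair protein, stood at 118, 106 and 93.8 FPKM in Parent_30 and 24.0, 19.8 and 18.8 FPKM in G14_37 (-2.29 (SE 0.11, adjusted p = 2.02e-07)), with 16.6 FPKM in G14_30 and 92.6 FPKM in Parent_37. The helix-hairpin-helix protein PAS_chr2-1_0135, which acts in repair and fork stability, stood at 84.6, 85.3 and 79.7 FPKM in Parent_30 and 20.8, 21.7 and 21.6 FPKM in G14_37 (-1.91 (SE 0.10, adjusted p = 3.87e-07)). DNA polymerase phi (PAS_chr2-1_0611) was the upregulated one (1.43 (SE 0.19, adjusted p = 0.000155)). Of 64 cell cycle rows, 5 were upregulated (against 5.91% of all rows), with 3 without replicate 1 and 14 under TPM scaling (against 15.7%). Among the 5 were the Pho85 cyclin PAS_chr1-1_0097 (1.58 (SE 0.18, adjusted p = 5.34e-05)) and a core subunit of the anaphase-promoting complex, PAS_chr3_0293 (1.33 (SE 0.11, adjusted p = 8.55e-06)). The cyclin-like gene PAS_chr4_0189 was the 1 downregulated row (-1.44 (SE 0.19, adjusted p = 0.000145)). Of 48 rows for meiosis, sporulation and mating, 5 were upregulated and none was downregulated. Under TPM scaling 13 were upregulated and 16 held, against 15.7% and 55.1% of all rows. Among the upregulated rows were a zinc finger regulator of meiosis (PAS_chr1-1_0434, 1.97 (SE 0.31, adjusted p = 0.000477)) and the pheromone-receptor G protein alpha subunit PAS_chr1-1_0096 (1.55 (SE 0.16, adjusted p = 3.46e-05)). A probable mRNA methyltransferase (PAS_chr2-1_0364) stood at 22.6, 24.7 and 24.0 FPKM in Parent_30 and 185, 87.7 and 71.0 FPKM in G14_37 (2.10 (SE 0.27, adjusted p = 0.000123)).

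Further single genes with described roles were among the largest shifts. A gene required for respiratory growth and a stable mitochondrial genome (PAS_chr2-1_0189) stood at 20.7, 20.5 and 20.5 FPKM in Parent_30 and 257, 157 and 51.0 FPKM in G14_37, higher in every library but unevenly so (2.57 (SE 0.47, adjusted p = 0.00116), and between 2.07 and 3.23 with single libraries left out). A membrane protein of mitochondria and eisosomes, which are patches of the plasma membrane (PAS_chr3_0287), stood at 142, 125 and 107 FPKM in Parent_30 and 1139, 693 and 489.8 FPKM in G14_37 (2.55 (SE 0.33, adjusted p = 0.000128)). Among the falls, the CCCH zinc finger gene PAS_chr4_0329 stood at 214, 250.5 and 314 FPKM in Parent_30 and 5.74, 37.8 and 39.8 FPKM in G14_37 (-3.55 (SE 0.61, adjusted p = 0.000796), and -2.69 without replicate 1). The protein kinase PAS_chr3_0042, which acts in sorting to the vacuole, stood at 334, 292 and 267 FPKM in Parent_30 and 31.5, 29.0 and 24.4 FPKM in G14_37, with all heat-grown libraries close together (-3.35 (SE 0.12, adjusted p = 5.88e-08)). Its mean was 25.7 FPKM in G14_30 and 1002 FPKM in Parent_37. The mucin-like gene PAS_FragB_0067 stood at 161, 82.0 and 95.7 FPKM in Parent_30 and 10.6, 8.77 and 11.6 FPKM in G14_37, again without overlap (-3.28 (SE 0.21, adjusted p = 1.05e-06)). Of 83 rows for phospholipids, sphingolipids and fatty acids, 3 were upregulated, 3 downregulated and 59 held, against 5.91%, 7.01% and 64.3% of all rows. TPM scaling gave 11, 0 and 44, against 15.7%, 3.37% and 55.1%. Phosphatidylglycerolphosphate synthase (PAS_chr1-3_0238), an early enzyme of cardiolipin synthesis, and a phosphatidylinositol transfer protein (PAS_chr4_0564) changed by -1.36 (SE 0.13, adjusted p = 1.69e-05) and -1.09 (SE 0.15, adjusted p = 0.000236), and neither was called under TPM scaling (-0.96 and -0.67). The call of the latter also ended with a single library left out (-0.93).

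Some upregulated genes were neighbours on the chromosomes. Held rows made up between 62.6% and 65.5% of each of the 4 chromosomes. Over 201 windows of 25 neighbouring rows, the median Log2 fold change ran from -0.43 to 1.03 with a median of -0.02. The highest window (chromosome 4, 1606412 to 1649464) held 13 upregulated rows of 25 and a median of 1.03, with 0.78 in G14_30 and 0.69 in Parent_37 relative to Parent_30. It holds the silenced ALPHA2 copy PAS_chr4_0878, a mating-type regulator gene, at 22.1, 23.2 and 18.2 FPKM in Parent_30 and 138, 154 and 164 FPKM in G14_37 (2.79 (SE 0.14, adjusted p = 2.27e-07)) and at 595 FPKM in Parent_37. Its last row, the hypothetical PAS_chr4_1001, had the largest rise of all rows (3.76 (SE 0.20, adjusted p = 3.85e-07)), and the signal peptidase subunit PAS_chr4_0874 and the Golgi protein PAS_chr4_0868 lie there too (1.26 and 1.204). The next windows adjoin each other on chromosome 3, from 218614 to 265921 and from 266154 to 317117. They held 6 and 10 upregulated rows, with medians of 0.70 and 0.72, and 22 and 23 of 25 rows lay above 0. In G14_30 their medians were 0.91 and 0.87, and in Parent_37 -0.07 and 0.24. The inner membrane chaperone PAS_chr3_0116, the assembly protein PAS_chr3_0123 and the ESCRT-I component PAS_chr3_0136 (1.09 (SE 0.09, adjusted p = 5.12e-06)) are in these windows. The windows were ranked on the values they are described by, so no test is given.

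The rest of the table is large. Of the 1998 rows without an informative description, 171 (8.56%) were upregulated, 118 (5.91%) downregulated and 1241 (62.1%) held, against 129 (4.19%), 238 (7.72%) and 2023 (65.6%) of the 3082 described rows. Of the 40 transcripts outside the annotation, 8 were upregulated, 3 downregulated and 20 held, against 5.91%, 7.01% and 64.3% of all rows. The most abundant row of the parent, the hypothetical PAS_chr4_0883, stood at 20197, 19369 and 20675 FPKM in Parent_30 and 7431, 11313 and 14682 FPKM in G14_37, below the parent in every library but under the fold threshold (-0.90 (SE 0.26, adjusted p = 0.0139)). The next, PAS_chr1-4_0586, stood at 16078, 15600.3 and 15704 FPKM in Parent_30 and 12060.1, 21363 and 18303 FPKM in G14_37 and was held, with replicate 1 below the parent and the others above it.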

How the data were processed

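RNA of 12 cultures was sequenced as 150 bp read pairs on an Illumina NovaSeq after NEBNext Ultra library preparation, and the 6 libraries of G14_37 and Parent_30 enter the comparison. The authors deposited FPKM values, which per the submitters' processing notes follow CASAVA, HISAT2 2.0.5 and featureCounts 1.5.0-p3. No source used here gives the strand or multi-mapping settings. FPKM times gene length gave whole fragments for 100% of values (tolerance 0.05), with 13428637 to 18183978 fragments per library compared. The FPKM already include a scaling between libraries.

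The analysis ran on log2(FPKM + 1), so the pseudocount was 1, and 1 model with 4 group means was fitted to all 12 libraries by limma 3.58.1 with a trend in R 4.3.3 (8 residual degrees of freedom). Fold changes are on that scale and understate changes of low genes. P-values were adjusted by Benjamini-Hochberg over 5080 rows. No low-value filter was used, since the lowest row mean was 1.52 FPKM. Simulated counts with known changes were used to test the fit. Further values came from Python 3.11.15, numpy 2.4.6 and pandas 2.3.3.

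Gene lists were matched by words in the gene descriptions, or by gene ID for the lists of the study, and a gene may be in several. The members and lists were chosen with earlier results of these data known. Genes were named by a rule: the 12 largest described rises and falls called with and without G14_37 replicate 1 and without overlap, up to 2 of each per list, the most abundant held gene of each list, the study's genes, and the 10 most abundant rows. Other genes in the text were chosen after their values were seen. Some genes that the rule names are not reported here. Alternatives were a pseudocount of 0.1, a minimum mean of 10 FPKM, TPM scaling, subtraction of the lowest value, both groups alone, array weights, a replicate block, voom on recovered fragments, a bound of 1.5-fold and each library left out.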

Additional observations from a re-analysis of the deposited data

How the results depend on the processing

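The counts of upregulated, downregulated and held rows (300, 356 and 3264) stayed within 1.5 times of these values under every alternative but 2. TPM scaling gave 796 upregulated and 171 downregulated rows and moved their balance from 45.7% to 82.3% upregulated, and the bound of 1.5-fold gave 1553 held rows in place of 3264. No row was called in the opposite direction under any alternative. With 1 library left out, 263 to 400 rows were upregulated, 339 to 424 downregulated and 3081 to 3604 held. Upregulated, downregulated and held rows were 316, 370 and 3210 with a pseudocount of 0.1, 263, 343 and 3042 with both groups fitted alone, 270, 365 and 3184 with array weights, where G14_37 replicate 1 had a weight of 0.0806, and 310, 371 and 3191 with voom on recovered fragments. With the replicate number as a block they were 298, 359 and 3310. The numbers do not pair the samples, since deviations of equal-numbered libraries correlated at 0.107, -0.118 and 0.465, and G14_37 replicate 2 correlated best with Parent_30 replicate 1 (0.296). Replicates are separate cultures of 1 isolate, strand is unknown, and below about 1 FPKM a gene rests on few fragments.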
